A study of Rattus norvegicus with 13 samples.

Results

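Injury-induced and axonal transcription factors were followed in cultured rat cortical neurons through 10 genes: *Jun*, *Fos*, *Fosl2*, *Atf3*, *Egr1*, *Klf4*, *Klf6*, *Klf7*, *Sox11* and *Creb1*. The genes are immediate early and regeneration factors, and every probe set whose only annotated symbol is one of them was taken, which gave 22 of 31099 probe sets on the array (10 of 14217 genes with a probe set of 1 symbol). Polyadenylated RNA was measured on 13 GeneChip arrays from neurons grown in a compartmentalised microfluidic platform, a device in which axons grow into a chamber away from the cell bodies. Regenerating axons (3 arrays) had been cut on day 11 in culture and had regrown for 2 days, neurons (3 arrays) came from the neuronal compartment without injury, and uninjured axons (7 arrays) came from 3 culture batches. All groups were harvested on day 13 after growth in Neurobasal E medium with B27, and each array held material from 3 platforms and RNA amplified in 2 rounds. For no group do the labels tie each array to its own culture, and p-values then measure a spread that may be technical. The number of arrays limits the precision.

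These genes encode DNA-binding proteins that switch other genes on or off. Immediate early genes such as *Fos*, *Jun* and *Egr1* are transcribed within minutes of synaptic activity or injury, and *Atf3*, *Sox11*, *Klf6* and *Klf7* are known for axon growth programmes in injured neurons, while *Klf4* is known to restrain axon growth. The messenger RNA of *Creb1* is known from developing axons, where its local translation and transport of the protein to the nucleus were described in sensory neurons.

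Promoter sequences show what regulatory letters lie before members with opposite placements in the arrays. RefSeq windows of the GRCr8 assembly were found for 7 of the 10 genes (*Jun*, *Fos* and *Atf3* had none in the table used), and 250 bases upstream of each listed start were searched on both strands. The motifs were the CArG box bound by serum response factor, TGACG (the core of the cAMP response element bound by CREB), TGANTCA (the AP-1 site) and GCGNGGGCG (the EGR site), and no matches overlapped. *Egr1* (chr18:26736828-26737077, plus strand) and *Klf6* (chr17:69458479-69458728, minus strand) have probe sets far higher in neurons. *Fosl2* (chr6:30039270-30039519, minus strand) and *Creb1* (the upstream of its 2 windows, chr9:73397259-73397508, plus strand) have probe sets lower in neurons. These lower calls depended on how the arrays are scaled. Capitals mark CArG, TGACG and GCGNGGGCG matches, 5′ to 3′.
Egr1: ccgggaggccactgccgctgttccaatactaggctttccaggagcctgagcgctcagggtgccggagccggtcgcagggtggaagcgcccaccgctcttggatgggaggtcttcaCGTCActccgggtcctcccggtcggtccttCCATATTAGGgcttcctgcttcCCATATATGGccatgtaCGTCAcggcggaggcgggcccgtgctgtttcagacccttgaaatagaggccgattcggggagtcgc
Klf6: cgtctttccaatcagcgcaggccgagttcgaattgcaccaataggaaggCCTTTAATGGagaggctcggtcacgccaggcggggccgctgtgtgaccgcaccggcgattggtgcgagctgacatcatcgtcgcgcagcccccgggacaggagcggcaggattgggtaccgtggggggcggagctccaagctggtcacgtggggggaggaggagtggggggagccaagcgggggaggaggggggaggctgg
Fosl2: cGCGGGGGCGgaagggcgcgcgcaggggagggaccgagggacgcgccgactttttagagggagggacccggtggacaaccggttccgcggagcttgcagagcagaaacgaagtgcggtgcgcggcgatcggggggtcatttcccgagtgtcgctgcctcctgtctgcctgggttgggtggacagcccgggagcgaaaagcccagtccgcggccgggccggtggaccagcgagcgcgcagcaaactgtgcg
Creb1: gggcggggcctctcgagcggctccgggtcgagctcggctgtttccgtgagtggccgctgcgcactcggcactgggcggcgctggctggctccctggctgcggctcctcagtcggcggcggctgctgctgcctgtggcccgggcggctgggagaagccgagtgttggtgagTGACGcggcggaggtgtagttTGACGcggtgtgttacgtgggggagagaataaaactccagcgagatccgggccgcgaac
*Egr1* holds 2 CArG boxes and 2 TGACG matches, and *Klf6* holds 1 CArG box. A CArG box is present in 1.50% of 33469 promoters of this length. The *Creb1* window shown holds 2 TGACG matches, which 18.2% of promoters contain, and its other window holds no match to any of the motifs. *Fosl2* holds 1 GCGNGGGCG match, found in 4.29%. The windows of *Klf4*, *Klf7* and *Sox11* hold none of these letters, and TGANTCA, present in 6.34% of promoters, was in none of the members' windows. Whether a listed start is the one used in these cells was not tested. A window without a match therefore does not show that the gene's promoter lacks the motif. A match is a description of letters and was not tied to the array values by any test.

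The deposited values are linear ratios without a signal level. Each set of uninjured arrays (1 to 3, 4 to 6, and 7 alone) has a median of 1 in 100% of rows and was taken to be divided by its own median. Array 7 thus reads 1 in every row, 6 uninjured arrays carry a measurement, and their median is 1 by construction. Such a division removes differences between these sets. The denominator of the regenerating and neuron arrays is not stated. The level in uninjured axons was assumed, and every direction against uninjured axons rests on that reading, with the reference given the error of 1 array in the fit. The 3′ control probe set of GAPDH read 0.355, 0.159 and 0.142 in regenerating axons and 13.7, 7.19 and 16.6 in neurons. The 5′ one read 0.50, 0.35 and 0.25 in regenerating axons and 64.1, 24.0 and 70.8 in neurons. For beta-actin the 3′ probe set read 0.809, 0.693 and 0.625 in regenerating axons and 71.2, 38.4 and 80.1 in neurons. Its 5′ probe set read 0.796, 1.07 and 0.824 in regenerating axons and 41.4, 28.6 and 52.7 in neurons. Hybridisation controls, which are spiked into the sample before it goes on the array, had median ratios of 1.14, 1.44 and 1.57 in regenerating axons and 0.275, 0.910 and 0.157 in neurons. Of all probe sets, 28.4% were called higher in neurons than in uninjured axons and 27.5% lower. Of 18 probe sets of neuron markers 15 were higher in neurons, with array medians of log2 2.26 to 3.31 there and -0.67 to -0.19 in regenerating axons. *Map2*, a marker of dendrites and cell bodies, read log2 6.24 ± 0.93 in 1 of its 2 probe sets and 0.01 ± 0.33 in the other. Astrocyte markers were higher in neurons in 11 of 17 probe sets (array medians 2.87 to 3.34; *Gfap* 3.84 ± 0.25) and lower in 2. Oligodendrocyte markers were higher in 5 of 13 and lower in 2, microglial markers were lower in 10 of 13 and higher in none, and fibroblast and vascular markers were lower in 6 of 13 and higher in 1. The part of these controls and of glial RNA in the results below was not tested, and more cells of a type cannot be told apart from more RNA per cell.

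Neurons carried more *Jun* RNA than uninjured axons by all 3 probe sets and more *Egr1* RNA by its only probe set, relative to all RNA on the array. *Klf6* was higher through 2 of its 3 probe sets, *Klf7* through 3 of 4 and by up to 12.3-fold, and *Fos* through 1 of 2. Probe sets of *Fosl2*, *Klf4*, *Klf7* and *Creb1* were lower in neurons, by 1.77-fold to 2.87-fold, but these calls depended on how the arrays are scaled. *Atf3* and *Sox11* did not pass in either direction. In limma with Benjamini-Hochberg adjustment over 31042 probe sets, 10 of the 22 member probe sets were higher in neurons and 5 were lower (adjusted p under 0.05), where 28.4% and 27.5% of all probe sets were called (55.9% in either direction). The member median was log2 0.25, against -0.07 over all probe sets. Neurons and the 6 measured uninjured arrays were fully separated in 16 of 22 probe sets, beside 69.9% of all probe sets. Errors below are standard errors of this fit (n = 3 arrays).

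**Figure D1:**
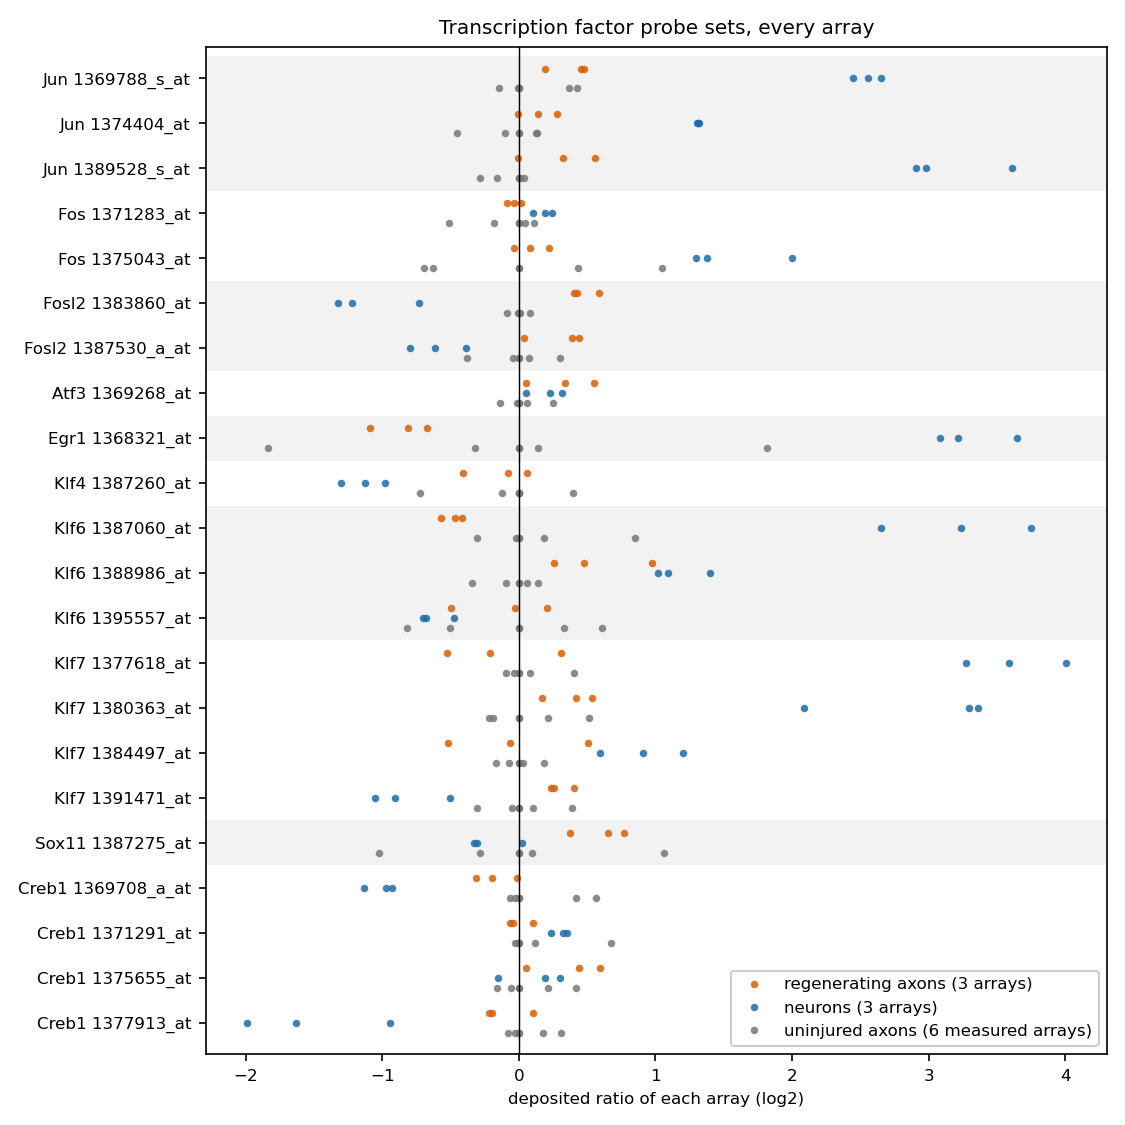
Deposited ratio (log2, horizontal axis) of each of the 22 member probe sets (rows) in every array: regenerating axons on top, neurons in the middle, the 6 measured uninjured axon arrays below. Neuron points of *Jun*, *Egr1*, *Klf6* and *Klf7* lie far to the right of the axon points in most of their probe sets, and *Creb1* and *Klf7* have probe sets on both sides of 0.

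*Jun* encodes the AP-1 subunit that is phosphorylated by JNK kinases after axon injury. Its probe set 1369788_s_at read 1.39, 1.14 and 1.37 in regenerating axons, 6.29, 5.45 and 5.88 in neurons, and 0.902 to 1.35 in uninjured axons. Probe set 1389528_s_at read 1.47, 0.994 and 1.25 in regenerating axons, 7.48, 7.90 and 12.2 in neurons, and 0.819 to 1.03 in uninjured axons. With 1374404_at the ratios were 0.997, 1.21 and 1.10 in regenerating axons, 2.47, 2.49 and 2.50 in neurons, and 0.731 to 1.09 in uninjured axons. All 3 probe sets placed every neuron array above every axon array, and the regenerating arrays overlapped the uninjured ones. The differences of neurons from uninjured axons were log2 2.55 ± 0.26 (adjusted p = 5.01e-05), 3.17 ± 0.28 (adjusted p = 2.46e-05) and 1.31 ± 0.24 (adjusted p = 0.00151, limma), in that order. The suffix "_s_at" marks probe sets that may match more than 1 transcript, and the probe set without it gave the smallest of the 3 differences.

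*Fos* encodes a partner of Jun in AP-1 and is the classical marker of recent neuronal activity. Probe set 1375043_at read 0.978, 1.06 and 1.17 in regenerating axons, 2.45, 2.60 and 3.99 in neurons, and 0.619 to 2.07 in uninjured axons. Neurons lay above all axon arrays there (log2 1.56 ± 0.59, adjusted p = 0.0466, limma). This call was lost when any 1 of the 3 neuron arrays, or uninjured array 2 or 6, was left out (adjusted p between 0.0514 and 0.104, limma). The other probe set, 1371283_at, read 1.01, 0.941 and 0.976 in regenerating axons, 1.14, 1.08 and 1.19 in neurons, and 0.702 to 1.08 in uninjured axons, with a difference of neurons from uninjured axons of log2 0.18 ± 0.25 (adjusted p = 0.554, limma) and an overlap between them.

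*Fosl2*, which encodes the Fos-related protein Fra-2, had the opposite placement. Probe set 1383860_at read 1.50, 1.34 and 1.32 in regenerating axons, 0.400, 0.602 and 0.428 in neurons, and 0.941 to 1.06 in uninjured axons. The 3 groups did not overlap, with regenerating axons highest and neurons lowest. Neurons were lower than uninjured axons by this probe set (log2 -1.09 ± 0.24, adjusted p = 0.00397, limma). Probe set 1387530_a_at read 1.31, 1.02 and 1.36 in regenerating axons, 0.654, 0.764 and 0.576 in neurons, and 0.770 to 1.24 in uninjured axons. There the neuron difference of log2 -0.60 ± 0.25 did not pass (adjusted p = 0.0684, limma). Without neuron array 2 it did, at log2 -0.70 (adjusted p = 0.0357, limma).

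*Atf3* is among the genes most reliably induced in injured peripheral neurons. Its probe set 1369268_at read 1.46, 1.04 and 1.27 in regenerating axons, 1.04, 1.17 and 1.24 in neurons, and 0.909 to 1.19 in uninjured axons. The 3 groups overlapped. The differences from uninjured axons were log2 0.31 ± 0.23 in regenerating axons (95% interval -0.19 to 0.82, adjusted p = 0.713, limma) and 0.20 ± 0.21 in neurons (95% interval -0.27 to 0.66, adjusted p = 0.431, limma).

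*Egr1*, a zinc finger factor induced by synaptic activity, had the widest spread among uninjured axons of any member. Probe set 1368321_at read 0.571, 0.626 and 0.471 in regenerating axons, 9.30, 12.5 and 8.45 in neurons, and 0.280 to 3.52 in uninjured axons. All neuron arrays were above all axon arrays, while the uninjured arrays differed 12.6-fold from lowest to highest and enclosed the regenerating ones. Neurons were 9.94-fold higher than uninjured axons (log2 3.31 ± 0.99, adjusted p = 0.0175, limma). Leaving out any 1 neuron array gave log2 3.15 to 3.43. Leaving out a measured uninjured array cannot move this value and changes only its error, because the reference array was kept in every fit. Over both kinds of fit the adjusted p ran from 0.00157 to 0.0357 (limma).

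The KLF genes encode zinc finger proteins that bind GC-rich promoters. *Klf6* was read by 3 probe sets that disagreed. Probe set 1387060_at, annotated with the RefSeq messenger RNA, read 0.722, 0.674 and 0.749 in regenerating axons, 9.40, 6.27 and 13.4 in neurons, and 0.809 to 1.80 in uninjured axons. All regenerating arrays were below and all neuron arrays above the uninjured ones, and neurons passed at log2 3.21 ± 0.44 (adjusted p = 0.000308, limma). Probe set 1388986_at read 1.19, 1.39 and 1.96 in regenerating axons, 2.13, 2.63 and 2.03 in neurons, and 0.790 to 1.10 in uninjured axons. Here both groups were above uninjured axons in every array, and neurons passed at log2 1.17 ± 0.23 (adjusted p = 0.00257, limma). Probe set 1395557_at read 0.980, 0.709 and 1.16 in regenerating axons, 0.614, 0.720 and 0.625 in neurons, and 0.567 to 1.52 in uninjured axons, and its neuron difference of log2 -0.62 ± 0.46 did not pass (adjusted p = 0.269, limma). The neuron differences of these probe sets spanned 3.83 on the log2 scale.

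For neurons against uninjured axons, *Klf7* had the largest difference of any member and the largest disagreement between probe sets, 4.44 on the log2 scale. Probe set 1377618_at read 1.24, 0.865 and 0.696 in regenerating axons, 12.01, 9.66 and 16.1 in neurons, and 0.939 to 1.32 in uninjured axons. Probe set 1380363_at read 1.13, 1.34 and 1.45 in regenerating axons, 10.3, 4.24 and 9.80 in neurons, and 0.861 to 1.43 in uninjured axons. In both, the neuron arrays stood apart and the regenerating arrays overlapped the uninjured ones, with neuron differences of log2 3.62 ± 0.29 (adjusted p = 1.39e-05) and 2.91 ± 0.47 (adjusted p = 0.000751, limma). With 1384497_at the ratios were 0.698, 1.42 and 0.956 in regenerating axons, 1.51, 1.87 and 2.30 in neurons, and 0.892 to 1.14 in uninjured axons (neurons log2 0.90 ± 0.25, adjusted p = 0.0123, limma). That call was lost when the spread was taken from the neuron arrays alone (adjusted p = 0.0674, limma). The last, 1391471_at, read 1.17, 1.33 and 1.19 in regenerating axons, 0.533, 0.707 and 0.481 in neurons, and 0.808 to 1.31 in uninjured axons. By that probe set neurons were lower (log2 -0.82 ± 0.29, adjusted p = 0.0361, limma), a call that was lost without neuron array 1 or 3 or uninjured array 2 (adjusted p = 0.0781, 0.0797 and 0.0525, limma).

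*Klf4* had 1 probe set, 1387260_at. It read 0.753, 1.04 and 0.945 in regenerating axons, 0.458, 0.508 and 0.406 in neurons, and 0.606 to 1.31 in uninjured axons. Every neuron array was below every axon array, and neurons were 2.20-fold lower (log2 -1.13 ± 0.35, adjusted p = 0.0206, limma).

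*Sox11*, a high-mobility-group factor of immature neurons, also had 1 probe set. Probe set 1387275_at read 1.70, 1.30 and 1.57 in regenerating axons, 0.808, 0.796 and 1.02 in neurons, and 0.491 to 2.09 in uninjured axons. The uninjured arrays enclosed both other groups, and regenerating axons lay above neurons in every array. Neither difference from uninjured axons passed, at log2 0.60 ± 0.58 in regenerating axons (95% interval -0.70 to 1.89, adjusted p = 0.815, limma) and -0.20 ± 0.59 in neurons (95% interval -1.52 to 1.11, adjusted p = 0.781, limma).

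*Creb1* encodes the cAMP-responsive factor CREB, and its 4 probe sets fell into pairs. Probe set 1369708_a_at, annotated with the RefSeq messenger RNA, read 0.875, 0.804 and 0.990 in regenerating axons, 0.526, 0.509 and 0.456 in neurons, and 0.959 to 1.48 in uninjured axons. Probe set 1377913_at read 0.862, 1.08 and 0.874 in regenerating axons, 0.251, 0.519 and 0.324 in neurons, and 0.948 to 1.24 in uninjured axons. In this pair neurons lay below all axon arrays, at log2 -1.01 ± 0.28 (adjusted p = 0.0131) and -1.52 ± 0.34 (adjusted p = 0.00479, limma). In the other pair neurons overlapped uninjured axons, and by 1371291_at alone every neuron array was above every regenerating array. Probe set 1371291_at read 0.955, 1.08 and 0.970 in regenerating axons, 1.25, 1.27 and 1.18 in neurons, and 0.983 to 1.59 in uninjured axons. Probe set 1375655_at read 1.51, 1.04 and 1.36 in regenerating axons, 1.14, 1.23 and 0.898 in neurons, and 0.893 to 1.34 in uninjured axons. Their neuron differences of log2 0.30 ± 0.27 (adjusted p = 0.351) and 0.11 ± 0.27 (adjusted p = 0.735, limma) did not pass, and a mean over all 4 probe sets was log2 -0.53 ± 0.20 (adjusted p = 0.0449, limma).

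**Figure D2:**
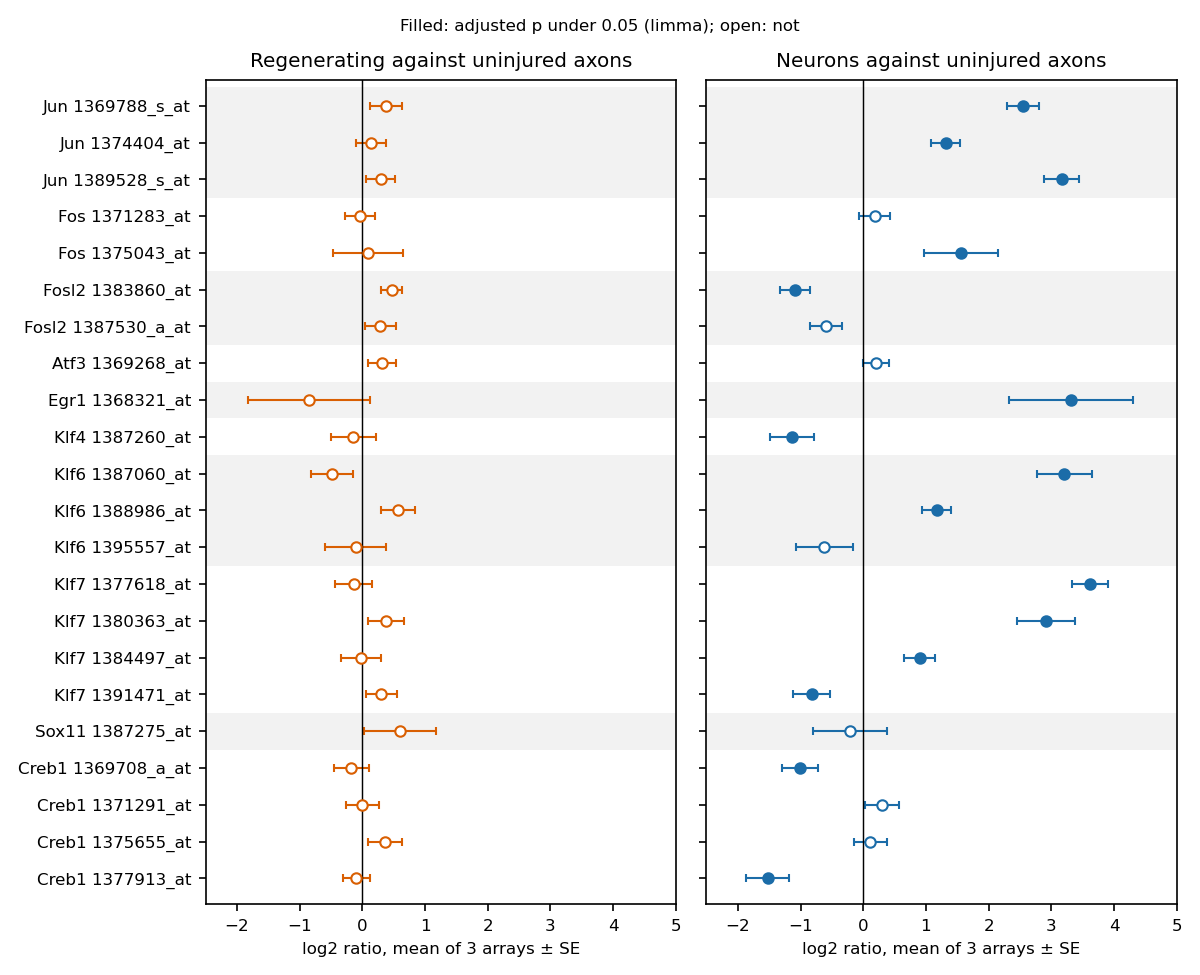
Log2 ratio against uninjured axons (horizontal axis, mean of 3 arrays ± SE of the limma fit) of the 22 member probe sets, for regenerating axons on the left and neurons on the right. Filled points passed at an adjusted p under 0.05: none for regenerating axons, and 10 higher and 5 lower for neurons.

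The probe sets lower in neurons have to be read beside genes best known from sensory tissues. Of 30 probe sets for smell, taste and pheromone receptors, 20 were called lower in neurons and none higher, where 27.5% and 28.4% of all probe sets were called. The receptor values had a median of log2 -0.93 and a range of -1.61 to 0.20. All 5 member probe sets called lower lie within that range, and all 10 called higher lie above it. The top of the range is small beside the members' median error of log2 0.28. A higher call within the range was thus hardly possible, and the second count is no separate result. The share of all called probe sets within or above the range is not given here. That these receptor genes are silent here was not tested. A ratio carries no signal level, so a low neuron ratio does not show that the transcript is present in axons.

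**Figure D3:**
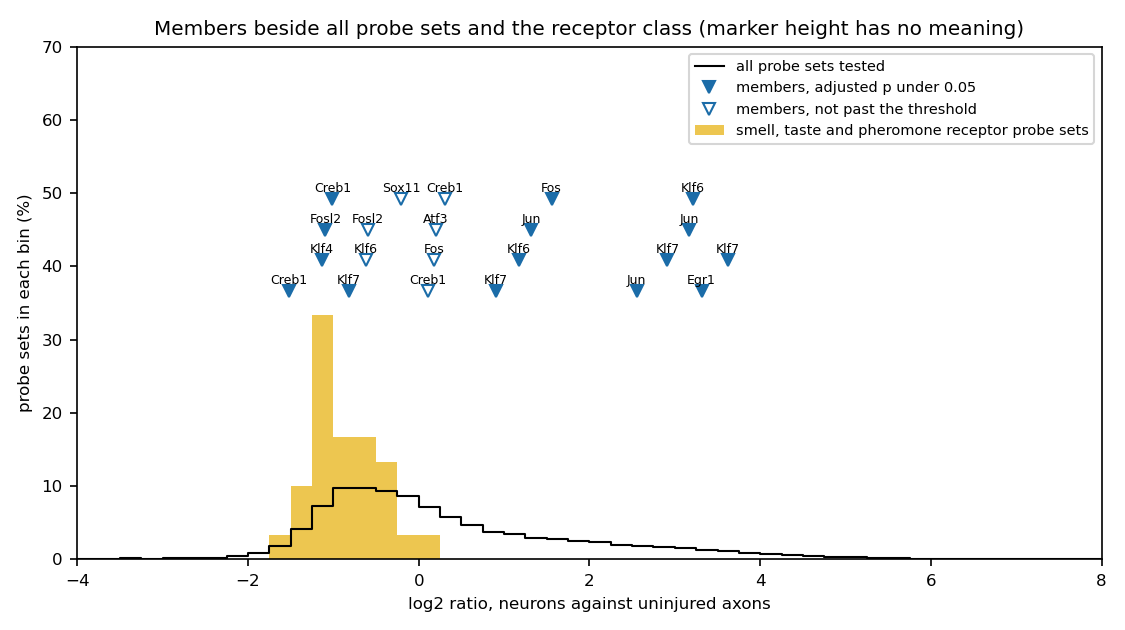
Distribution of log2 ratios of neurons against uninjured axons (horizontal axis) as the share of probe sets in each bin (vertical axis, %), for all probe sets tested (line) and the 30 receptor probe sets (bars), with the member probe sets as triangles above. The members called lower sit over the receptor bars, and the 10 called higher sit to the right of the highest receptor value, 0.20.

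The calls of higher RNA in neurons held under every scaling tried, and the calls of lower RNA did not. Every shift raised the neuron values, by a median of log2 0.067 (all probe sets), 1.56 (hybridisation controls) and 0.91 (receptor probe sets). Upward shifts favour higher calls over lower ones, so this difference does not show that the higher calls are the firmer ones. With each array shifted to a median of 0 over all probe sets, 10 were higher and 4 lower. Shifting each array to its hybridisation controls left the same 10 higher and none lower, and all 22 values were then above 0. Shifting to the receptor probe sets, a choice made after seeing the data, kept those 10, added 4 (*Fos* 1371283_at, *Atf3*, and *Creb1* 1371291_at and 1375655_at) and left none lower. Under that shift *Atf3* read log2 1.11 (adjusted p = 0.00242, limma), and *Klf4* read -0.23 (adjusted p = 0.613, limma). Of the 289 probe sets of related genes described below, 181 were then higher, beside 102 as deposited. Shares over all probe sets under the shifts are not given here, so the added calls are no result about the members.

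**Figure D4:**
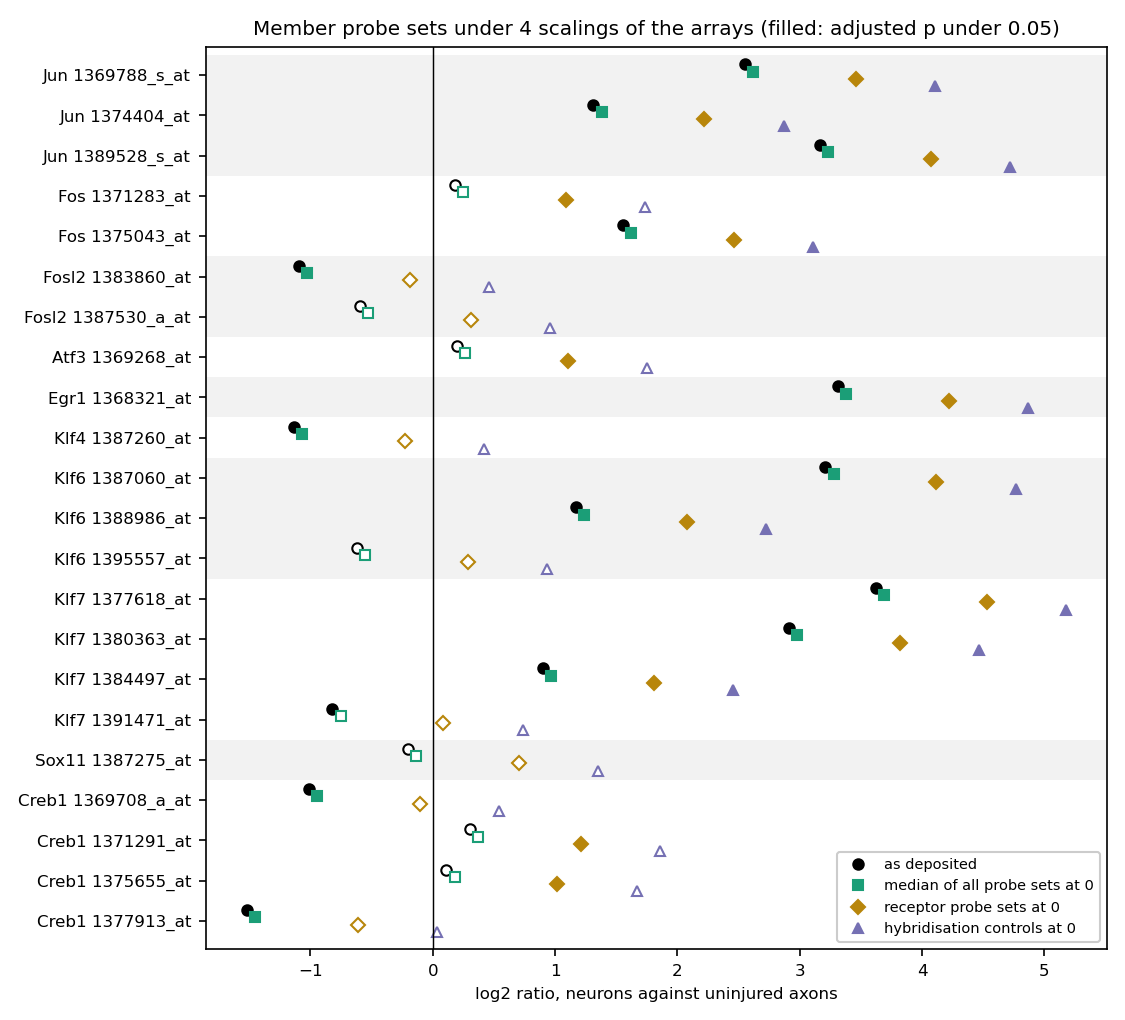
Log2 ratio of neurons against uninjured axons (horizontal axis) of each member probe set under 4 scalings of the arrays, with filled symbols where the adjusted p was under 0.05. The filled symbols on the left of 0 belong to the deposited scaling and to the shift to the median of all probe sets, and the 10 probe sets higher in neurons are filled under each scaling.

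Regenerating axons did not differ from uninjured axons in any member past the threshold, 2 days after the axons were cut. Of 22 probe sets 0 were called in limma (the smallest adjusted p was 0.31, for *Fosl2* 1383860_at), where 0.345% of all probe sets were called (0.00966% higher and 0.335% lower). At an unadjusted p under 0.05 there was 1 probe set, that of *Fosl2*, against 10.9% of all. Its difference was log2 0.47 ± 0.17, with a 95% interval of 0.09 to 0.85. In 3 of 22 probe sets the regenerating arrays did not overlap the uninjured ones, as in 21.3% of all probe sets. These were *Fosl2* 1383860_at and *Klf6* 1388986_at, both higher in regenerating axons, and *Klf6* 1387060_at, lower. The member values ran from log2 -0.86 ± 0.97 for *Egr1* to 0.60 ± 0.58 for *Sox11*, with a median of 0.11 beside 0.03 over all probe sets. For the 3 probe sets of *Jun* the values were log2 0.37 ± 0.26, 0.14 ± 0.24 and 0.29 ± 0.24 (95% intervals -0.20 to 0.95, -0.40 to 0.67 and -0.24 to 0.82). When the fit gave the reference no error, 2 probe sets passed, *Fosl2* 1383860_at (adjusted p = 0.00384) and *Klf6* 1388986_at (log2 0.57, adjusted p = 0.0159, limma), both higher. That setting also called 28 higher and 29 lower among the 289 probe sets of related genes described below. The share over all probe sets under it is not given here, and the 0.345% above belongs to the main fit.

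Set directly against neurons, regenerating axons had less *Jun* RNA by all 3 probe sets and less *Egr1* RNA by its only probe set. They had less *Klf6* RNA by 2 of 3, *Klf7* RNA by 3 of 4 and *Fos* RNA by 1 of 2. The placement of the other members depended on the scaling. This 2-group fit does not use the uninjured arrays, but it assumes that both groups' ratios have the same denominator, which the sources do not state. In limma 10 of 22 probe sets were lower in regenerating axons and 7 higher, where 35.2% and 37.3% of all probe sets were called (72.5% in either direction). The groups did not overlap in 19 of 22 probe sets, beside 77.3% of all. *Egr1* was 18.0-fold lower (log2 -4.17 ± 0.20, adjusted p = 1.05e-06), a smaller error than against uninjured axons, whose own spread did not enter. *Klf7* 1377618_at (log2 -3.76 ± 0.27), *Klf6* 1387060_at (-3.70 ± 0.26) and *Jun* 1389528_s_at (-2.88 ± 0.24) followed, with adjusted p-values between 7.27e-06 and 1.83e-05 (limma). The call for *Klf6* 1388986_at (log2 -0.60 ± 0.22, adjusted p = 0.0353, limma) was lost without neuron array 1 or 2 or regenerating array 1 or 2. That for *Klf7* 1384497_at (log2 -0.93 ± 0.28, adjusted p = 0.0162, limma) was lost without regenerating array 1 or 3 or neuron array 3. The highest of the 7 probe sets called higher was *Fosl2* 1383860_at at log2 1.56 ± 0.19 (adjusted p = 0.000167, limma), and *Sox11* was among them at 0.80 ± 0.18 (adjusted p = 0.00395, limma). None of these 7 calls remained when the arrays were shifted to the hybridisation controls or to the receptor probe sets, and *Sox11* then read log2 -1.21 and -0.35. Both shifts moved these differences down, by a median of log2 -2.01 and -1.15, which favours lower calls. The 10 lower calls remained under both shifts, and the number lower was then 13 and 15. *Atf3* was among those added, at log2 -1.90 (adjusted p = 0.0439) and -1.04 (adjusted p = 0.00236, limma). Of the 289 probe sets of related genes described below, 179 and 232 were lower under these shifts, beside 125 as deposited. Shares over all probe sets under the shifts are not given here, so the added calls are no result about the members.

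Relatives of the members in the same protein families were called in both directions, where 28.4% of all probe sets were higher in neurons and 27.5% lower. Among AP-1 relatives, 1 of 18 probe sets was higher in neurons than in uninjured axons and 3 were lower, with a list median of log2 -0.26 beside -0.07 over all probe sets. *Jund* read log2 2.66 ± 0.66 in the highest of its 3 probe sets and -0.76 in the lowest, and *Fosl1* (-1.43 ± 0.26) and *Batf2* (-1.20 ± 0.26) were the lowest. CREB and ATF relatives were split 12 higher to 8 lower among 38 (median log2 -0.09). *Atf4*, the stress-response factor whose messenger RNA is known from injured axons, read 0.721, 0.600 and 0.402 in regenerating axons and 23.4, 13.8 and 46.0 in neurons, and was 24.6-fold higher in neurons (log2 4.62 ± 0.50, adjusted p = 7.42e-05, limma). *Crebbp*, a coactivator of CREB, ran from log2 3.53 ± 0.83 to -0.99 over its 5 probe sets. EGR relatives and cofactors were split 3 to 5 among 21 (median log2 -0.31), with *Elk4* at log2 1.45 ± 0.33 in the highest of its 3 probe sets and -0.55 in the lowest. *Srf*, which encodes serum response factor, read log2 -1.32 ± 0.18 in the lowest of its 3 probe sets and 0.89 in the highest. KLF and SP relatives were split 6 to 6 among 34 (median log2 -0.09; *Klf13* 1.95 ± 0.48, *Sp1* from -1.43 ± 0.29 to 0.68 over its 5 probe sets), and SOX relatives 7 to 3 among 21 (median log2 0.79). *Sox4*, the close relative of *Sox11*, ran from log2 3.40 ± 0.56 to -0.91 ± 0.23 over its 7 probe sets.

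Signalling and transport genes around these factors were called higher in neurons more often than lower, where 28.4% of all probe sets were higher and 27.5% lower. The list medians were log2 1.08 for kinases, 1.20 for nuclear import and 0.80 for other injury-response factors. They were 0.41 for activity-induced targets and -0.13 for regeneration-associated targets, beside -0.07 over all probe sets. Of 35 probe sets for kinases and scaffolds upstream of *Jun* and *Creb1*, 19 were higher and 5 lower, with the CREB kinase gene *Rps6ka3* at log2 4.63 ± 0.62 in the highest of its 3 probe sets and 0.35 in the lowest. The protein kinase A subunit gene *Prkacb* read log2 3.90 ± 0.24 in the highest of its 3 probe sets and 0.035 in the lowest. Nuclear import carriers, which bring such factors from axon to nucleus, were higher in 15 of 26 and lower in 2 (*Kpna4* 3.68 ± 0.40). *Kpna1* ran from log2 4.13 ± 0.98 to -0.61 over its 3 probe sets. Other injury-response factors were higher in 13 of 27 and lower in 4 (*Hif1a* 4.04 ± 0.45, *Id3* 3.93 ± 0.43). Activity-induced targets were higher in 13 of 33 and lower in 1, led by the granin gene *Scg2* (16.0-fold) and the nuclear receptor gene *Nr4a3* (log2 3.49 ± 0.50 in the highest of its 3 probe sets and -0.051 in the lowest). Regeneration-associated targets were higher in 13 of 36 and lower in 5, with *Sprr1a* at log2 -1.16 ± 0.20. The 2 probe sets of *Stmn2* read log2 5.93 ± 0.84 and 2.53, and those of *Basp1* read 5.37 ± 0.49 and -0.046. Over all 10 lists 102 of 289 probe sets were higher and 42 lower, with a median of log2 0.23. That is 49.8% called in either direction, beside 55.9% of all probe sets. None was lower once arrays were shifted to the hybridisation controls or to the receptor probe sets. In regenerating axons against neurons, 77 of the 289 were higher and 125 lower, with a median of log2 -0.19. Of all probe sets 37.3% were higher there and 35.2% lower.

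**Figure D5:**
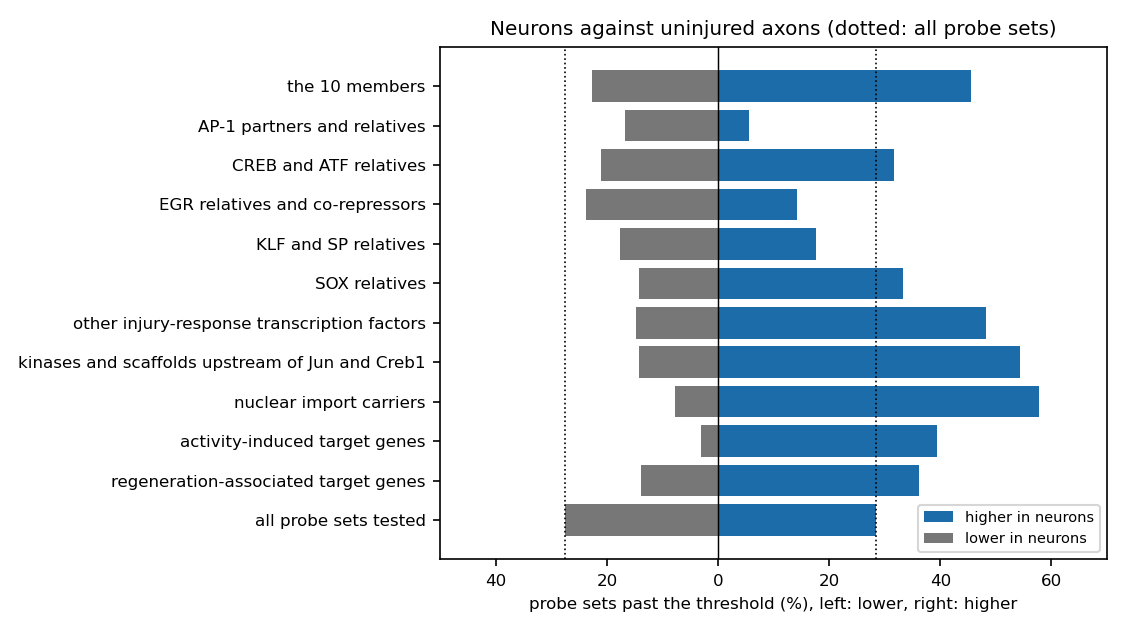
Share of probe sets (horizontal axis, %) called higher in neurons (right) or lower in neurons (left) against uninjured axons, for the members, 10 lists of related genes and all probe sets tested (dotted lines at 28.4% and 27.5%). Nuclear import carriers and upstream kinases reach furthest to the right, and AP-1 relatives least.

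In regenerating axons 2 of these 289 probe sets passed against uninjured axons (0.692%, beside 0.345% of all probe sets). Both were lower and both were for genes upstream of the factors. *Mapk8ip1*, which encodes the JNK scaffold JIP1, was 8.03-fold lower by 1 of its 2 probe sets, which read 0.227, 0.110 and 0.0769 in regenerating axons (log2 -3.01 ± 0.49, adjusted p = 0.0449, limma). Its other probe set was at log2 -0.87 and did not pass. *Akt1*, a survival kinase gene, had 3 probe sets, and the lower one read 0.353, 0.269 and 0.271 in regenerating axons (log2 -1.76 ± 0.30, adjusted p = 0.0495, limma), while the highest of the others was at 0.57. The number lower among the 289 was 5 without regenerating array 1, and 0 without regenerating array 2 or 3 or uninjured array 2, 5 or 6.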

How the data were processed

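Per the submitters' processing notes the arrays were processed with RMA, without a version or settings. The values the authors deposited are linear ratios of 31099 probe sets by 13 arrays; each column carries the title of its sample. How the ratios of the regenerating and neuron arrays were made is not given in the sources used here. The log2 of each deposited ratio was tested in R 4.3.3 by linear models with moderated variances (limma 3.58.1), with Benjamini-Hochberg adjustment over the 31042 probe sets that are not controls and a threshold of 0.05. Against uninjured axons, the 3 arrays of a group were compared with the reference, array 7, which was given the error of 1 array. The spread came from those 3 arrays and from uninjured arrays 1 to 6 about the mean of their set. A fit of both groups alone set regenerating axons against neurons. Both comparisons against uninjured axons share the reference.

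Symbols came from the platform's annotation (20826 probe sets with 1 symbol, 436 with several, 9780 with none), and all 22 member identifiers were found in RefSeq's GRCr8 table with unchanged symbols. Scripts were tested on simulated data. The members and lists were chosen with earlier results of these data known. Beside the members, the text names up to 2 genes with the largest positive and 2 with the largest negative called value of each list (not all are printed) and fixed marker and control genes. Replicate numbers were checked for pairing through deviations from group means: regenerating and neuron arrays of the same number correlated at 0.13, 0.12 and -0.09, so the numbers were not taken to pair the arrays. Alternatives covered the scaling of arrays, the error of the reference, the source of the spread, a gene mean, a robust variance model, single-symbol probe sets, the replicate block and leaving out each array. Promoter windows are from RefSeq, and figures were drawn with matplotlib 3.10.9.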

Additional observations from a re-analysis of the deposited data

Results flagged for a closer look

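In 5 of 22 member probe sets 1 of the 6 measured uninjured arrays stood apart from the others (Dixon's test at 95% on the linear ratios). No result on the log2 scale of the fits and no share over all probe sets is given here. Chance flags about 1 in 20 groups of independent values. The division of each set by its own median shapes these values, so that rate need not hold. Uninjured array 4 was the high one in 3 of them, with *Egr1* at 3.52, *Sox11* at 2.09 and *Klf7* 1377618_at at 1.32. *Klf6* 1387060_at read 1.80 in array 3, and *Creb1* 1371291_at read 1.59 in array 1.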

How the results depend on the processing

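Median centring, robust variances and the use of single-symbol probe sets alone kept the member counts within 1.5 times. Shifting arrays to the hybridisation controls left 0 member probe sets lower in neurons than in uninjured axons and 0 higher in regenerating axons than in neurons; of the 289 list probe sets, 0 stayed lower in neurons, 0 higher in regenerating axons than in neurons, and 11 were lower in regenerating than in uninjured axons. Among probe sets called before or after this shift, signs turned for neurons against uninjured axons in *Fosl2* 1383860_at (log2 0.46), *Klf4* (0.42), *Klf7* 1391471_at (0.73) and *Creb1* 1369708_a_at (0.54) and 1377913_at (0.034). A further 3 signs turned there in probe sets called neither before nor after. For regenerating axons minus neurons the signs of such called probe sets turned in *Fosl2* 1383860_at (-0.45) and 1387530_a_at (-1.12), *Atf3* (-1.90), *Klf4* (-1.02), *Klf7* 1391471_at (-0.89), *Sox11* (-1.21) and *Creb1* 1369708_a_at (-1.17) and 1377913_at (-0.59). There 2 uncalled signs turned as well, and for regenerating against uninjured axons 9 uncalled signs did. Shifting to the receptor probe sets, added after seeing the data, left 0 member probe sets lower in neurons than in uninjured axons and 0 higher in regenerating axons than in neurons. Of the list probe sets, 181 were then higher and 0 lower in neurons than in uninjured axons, 4 were lower in regenerating than in uninjured axons, and 3 were higher and 232 lower in regenerating axons than in neurons. Among probe sets called before or after this shift, *Klf7* 1391471_at turned to 0.086 in neurons against uninjured axons, and for regenerating axons minus neurons the turned values were *Fosl2* 1387530_a_at -0.27, *Atf3* -1.04, *Klf4* -0.16, *Klf6* 1395557_at -0.64, *Klf7* 1391471_at -0.034, *Sox11* -0.35, and *Creb1* 1369708_a_at -0.32 and 1375655_at -0.90. Uncalled signs turned in 3 probe sets for neurons and in 2 for regenerating axons, each against uninjured axons. The cause was not tested. With no error for the reference, 2 member probe sets were higher in regenerating than in uninjured axons, 28 list probe sets were higher and 29 lower there, and 87 were lower in neurons. With the spread from the group alone, 9 member probe sets were higher and 4 lower in neurons than in uninjured axons (*Klf7* 1384497_at and 1391471_at were lost), and 21 list probe sets were lower in neurons and 0 in regenerating axons than in uninjured axons. Averaged over probe sets, which leaves fewer items to count, 5 member genes were higher and 3 lower in neurons than in uninjured axons, and 4 were higher and 5 lower in regenerating axons than in neurons. Of list genes, 65 were higher and 25 lower in neurons and 1 lower in regenerating axons than in uninjured axons, and 39 were higher and 76 lower in regenerating axons than in neurons. Leaving out 1 array gave 9 to 10 member probe sets higher and 4 to 6 lower in neurons than in uninjured axons, 7 to 8 higher and 8 to 9 lower in regenerating axons than in neurons, and 0 to 5 list probe sets lower in regenerating than in uninjured axons; of the last, 5 were lower without regenerating array 1, and 0 without regenerating array 2 or 3 or uninjured array 2, 5 or 6. The replicate block left 7 member probe sets higher and 10 lower in regenerating axons than in neurons, and for the lists gave 68 and 120. Regenerating array 1 deviated most like neuron array 3 (r = 0.16), not like the array with its own number. The deposited ratios carry no signal level, so nothing can be said of background.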
